A study of Mus musculus with 20 samples.

Results

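The genes described here are 8 heat shock chaperones, Dnajb1, Hspa1a, Hspa1b, Hspa8, Hsph1, Hsp90aa1, Hspd1 and Hspe1, and 2 cold-induced RNA-binding proteins, Rbm3 and Cirbp. They were chosen by name, and all 10 were among the 12988 genes of the count table and passed the low-count filter. The list was drawn up with earlier results of these libraries in view, in which Rbm3 stood out between stressed and control females and Dnajb1 between control males and control females. Those contrasts, and the difference of the stress effects that is built from them, are therefore given below as descriptions with no test. Tests are given for stress in males and for sex in stressed mice. Dnajb1 is left out of the former and Rbm3 of the latter, because each test would reuse libraries in which that gene stood out. Hspa1a, Hspa1b, Hsph1 and Rbm3 also had every male control above every female control, and stress in males is tested for them against those male controls. Hspa1b also had every stressed female above every female control, and it is tested for sex in stressed mice. Those tests are therefore not independent of the contrasts described.

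RNA was sequenced from the adBNST, which is the anterodorsal division of the bed nucleus along the stria terminalis, part of the extended amygdala and tied to anxiety. The 4 groups were female controls, females exposed to chronic variable mild stress (CVMS), male controls and males exposed to CVMS, with 15 mice per group, aged 7 to 9 weeks at the start. CVMS was a 6-week schedule of changing minor stressors, among them cold exposure, swims in cold water, restraint and altered bedding. Wet bedding was the last stressor, and tissue was taken 1 hour after it under ketamine anesthesia. Each library was made from the joined tissue of 3 mice, which gives 5 libraries per group. The labels used here name no strain, transgene or drug treatment other than the anesthetic that all groups shared.

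Total counts ran from 2707881 to 33595388 per library, and the shallowest library was female control 4. All 8 listed markers of GABA neurons of the extended amygdala were present, at summed levels of 2695 to 3118 CPM (counts-per-million, scaled by TMM factors) over the 20 libraries. Summed levels of the 10 striatal markers differed between groups, with 2149 to 2686 CPM in male controls, 2334 to 4193 in female controls, 2276 to 4652 in stressed females and 3093 to 4702 in stressed males. Male controls and stressed males did not overlap in that sum, and 10 of 10 striatal markers were higher in stressed males and 0 of 10 higher in control males than in control females, with 0 called in either contrast. The 8 oligodendrocyte markers summed to 6966 to 12418 CPM over the libraries, with overlap between all groups, and 0 of 8 were higher in control males than in control females and 0 of 8 higher in stressed than in control females, with 0 called. Of 5 microglial markers, 0 were higher in control males than in control females and 5 were higher with stress in males, with 0 called. Of 5 endothelial markers, 1 was higher in control males than in control females, and 1 was called in that contrast. With stress in males 4 of the 5 endothelial markers were higher, with 0 called. The part of these shifts in the levels below was not tested beyond the covariate values given. Since male controls and stressed males did not overlap in the striatal sum, the striatal covariate cannot separate stress in males from that shift. In bulk tissue, fewer cells of a type and less RNA per cell cannot be told apart.

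Heat shock proteins fold or refold other proteins. When unfolded protein accumulates, heat shock factor 1 binds heat shock elements in DNA, which are alternating GAA and TTC units, and drives genes such as Hspa1a, Hspa1b, Dnajb1 and Hsph1 from a low resting level. Hspa8 and Hsp90aa1 supply much of the standing chaperone pool of neurons, and Hspd1 and Hspe1 form the folding chamber of mitochondria. Rbm3 and Cirbp are the opposite kind of temperature gene: mild cooling raises them, and both bind RNA.

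Promoter windows (RefSeq, GRCm38.p6, from 250 bases before to 50 after a start) were matched for 7 of the 10 genes, as 11 windows. Heat shock elements in them were looked for as GAANNTTC or TTCNNGAA for 2 units, with 3 and 4 units extending the same alternation after 2 bases each. Each pattern was searched on both strands, and a longer element also counts as its shorter parts. A match describes the letters and not binding. The stretches below carry the elements of the genes whose levels follow, with the units in capitals.
Hspd1: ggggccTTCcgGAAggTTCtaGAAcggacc
Hspe1: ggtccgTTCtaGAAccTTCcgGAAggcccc
Hsph1: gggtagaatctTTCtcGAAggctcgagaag
Hsph1, after its start: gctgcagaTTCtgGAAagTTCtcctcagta
Hspa1a: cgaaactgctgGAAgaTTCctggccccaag
Hspa1b: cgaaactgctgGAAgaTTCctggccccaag

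The Hspd1 and Hspe1 stretches are the opposite strands of 1 site, at chr1:55088053-55088082, with 4 units in a row. That site lies between a start of Hspd1 on the minus strand and the start of Hspe1 on the plus strand, 216 bases apart, from which the genes are read away from each other. Another annotated start of Hspd1, at 55088243, lies 95 bases past the Hspe1 start, so from it the transcripts overlap, and its own window held 0 elements. An element of 4 units was found in the 250 bases before the start of 7 of 32851 windows (0.0213%). One of 3 units was found in 153 (0.466%) and one of 2 units in 4218 (12.8%). Hsph1 (minus strand) has 2 units at chr5:149636351-149636380 and 3 units at chr5:149636279-149636308, the latter inside the transcribed part. The Hspa1a stretch (chr17:34972242-34972271) and the Hspa1b stretch (chr17:34959324-34959353), both on the minus strand, hold 2 units and have the same letters. The 300-base windows of Hspa1a and Hspa1b were identical at 296 positions (98.7%). No element of 2 or more units was found in the windows of Dnajb1 or Cirbp.

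Hspa1a and Hspa1b are neighbouring copies of the inducible HSP70 gene on chromosome 17. Of all 100-base stretches of the Hspa1a transcript, 47.1% also occur in Hspa1b, and 49.9% of those of Hspa1b occur in Hspa1a. How reads that fit both were counted is not given in the sources used here, so the split between the copies is uncertain, and their sum is given as well. GENCODE M21 names 5 pseudogenes after Hspd1, 6 after Hspe1 and 1 after Rbm3. Reads could be shared with those too.

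Levels of different genes are compared per kilobase (kb) of annotated exon, all isoforms merged. On that scale Hspa8, the constitutive HSP70, was highest at a mean of 307 CPM per kb over 20 libraries (274 to 332). Hsp90aa1 followed at 216 (181 to 244), Hspd1 at 74.7 (67.02 to 80.6) and Hsph1 at 53.1 (43.8 to 62.4), and these 4 ranges did not overlap. Hspe1 at 28.7 (19.6 to 34.8), Cirbp at 24.001 (19.8 to 28.0) and Dnajb1 at 18.2 (13.5 to 24.8) overlapped their neighbours in the order. Rbm3 averaged 7.65 CPM per kb (4.89 to 9.57). The inducible copies were far below the others, Hspa1b at 1.49 (0.269 to 3.31) and Hspa1a at 1.32 (0.717 to 2.20), and their ranges overlapped. With 1454 counts over all libraries, Hspa1a had a larger total than only 603 of the 12988 genes, and Hspa1b, with 1651, than 842.

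Dnajb1 is the co-chaperone that hands unfolded protein to HSP70 and starts its ATP cycle. For replicates 1 to 5 in order, its levels were 50.6, 46.01, 43.4, 48.2 and 47.5 CPM in female controls and 56.4, 56.8, 57.4, 49.6 and 47.1 CPM in stressed females. They were 61.96, 75.6, 79.6, 61.4 and 74.9 CPM in male controls and 59.0, 58.5, 62.9, 77.01 and 54.0 CPM in stressed males. Every male control lay above every female control, whereas stressed females overlapped female controls and stressed males overlapped male controls. Group means were 47.1 ± 2.67 (SD, n = 5), 53.5 ± 4.76, 70.7 ± 8.41 and 62.3 ± 8.83 CPM in the same order. As a description, control males were 1.49-fold above control females (log2 fold change 0.58, SE 0.09), stressed females differed from control females by 0.18 (SE 0.09), and stressed males from control males by -0.17 (SE 0.09). Stressed males and stressed females are not the groups of the contrast in which Dnajb1 stood out. Between them its difference was 0.23 (SE 0.09). The unadjusted p was 0.0174 and the adjusted p 0.642, by edgeR's quasi-likelihood test with Benjamini-Hochberg adjustment over all genes. The difference did not pass. Its interval (95%) ran from 0.04 to 0.41, which is 1.03-fold to 1.33-fold.

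**Figure D1:**
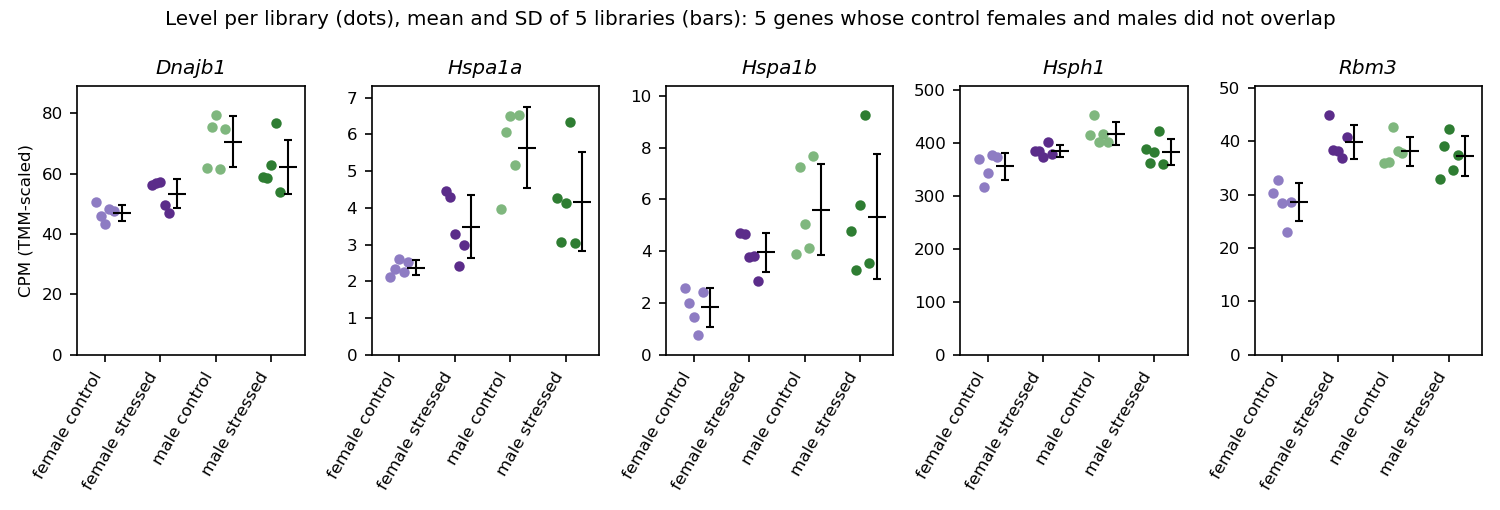
Levels in CPM (vertical axis, from 0) of Dnajb1, Hspa1a, Hspa1b, Hsph1 and Rbm3 in the 4 groups, with 1 dot per library and the mean and SD of 5 libraries as a bar. The 5 female controls lie below the 5 male controls for each of these genes, and for Hspa1b and Rbm3 also below the 5 stressed females.

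Hspa1a and Hspa1b encode the HSP70 that is made on demand. Hspa1a stood at 2.13, 2.33, 2.62, 2.26 and 2.54 CPM in female controls and at 4.45, 4.30, 3.29, 2.43 and 2.98 CPM in stressed females, with 6 to 124 counts behind each value. In male controls it stood at 3.96, 6.05, 6.51, 5.16 and 6.53 CPM, and in stressed males at 4.26, 3.08, 4.13, 6.35 and 3.04 CPM. The coefficient of variation of Hspa1a was 8.46% in female controls, against 19.4% to 32.2% in the other groups. The female control values rest on 6 to 52 counts per library. Values from so few counts vary by counting alone, so the small spread is not read as a trait of the group. Hspa1b stood at 2.58, 2.01, 1.45, 0.753 and 2.42 CPM in female controls, the lowest resting on 2 counts in the shallowest library, and at 4.69, 4.65, 3.76, 3.83 and 2.86 CPM in stressed females. It stood at 3.88, 7.27, 5.06, 4.14 and 7.69 CPM in male controls and at 4.79, 3.26, 5.78, 9.27 and 3.56 CPM in stressed males. Hspa1b thus had every stressed female and every male control above every female control, while in males the groups overlapped.

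The copies summed gave 4.22 ± 0.755 CPM in female controls, 7.45 ± 1.52 in stressed females, 11.3 ± 2.68 in male controls and 9.505 ± 3.75 in stressed males (SD, n = 5 each). As descriptions, control males were 2.55-fold above control females in the sum (log2 fold change 1.35, SE 0.24), and stressed females were 1.68-fold above control females (0.75, SE 0.24). Taken singly, the sex difference in controls was 1.24 (SE 0.22) for Hspa1a and 1.45 (SE 0.30) for Hspa1b, and the stress difference in females 0.55 (SE 0.23) and 0.93 (SE 0.31). The value for Hspa1b was the highest fitted log2 fold change with stress in females of all 12988 genes, and it was not tested here. That contrast was in view when the genes were chosen. Fitted values of genes with few counts scatter widely, and Hspa1b had 2 counts in female control 4, so the rank is no support for a change. In males, stress gave -0.39 (SE 0.19) for Hspa1a with an adjusted p of 0.327 by edgeR, and -0.01 (SE 0.25) for Hspa1b with an adjusted p of 0.995. Neither passed, and the interval for Hspa1b, -0.53 to 0.51, leaves room for a change of 1.42-fold up or to 0.691-fold down. Between stressed males and females the differences were 0.31 (SE 0.20, adjusted p 0.775 by edgeR) and 0.51 (SE 0.26, adjusted p 0.715 by edgeR).

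The value for Hspa1a with stress in males changed without 1 library and with the striatal covariate. Without male stressed 4, the highest of its group for both copies, it was -0.64 (adjusted p 0.0888 by edgeR), and with the striatal marker score as a covariate it was -0.12. Hspa1b in males was above 0 with either marker covariate and without each of 5 single libraries. Between stressed males and females, the values without male stressed 4 were 0.05 for Hspa1a, 0.17 for Hspa1b and 0.14 for Dnajb1.

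Hsph1 is an HSP110, which resets HSP70 by exchanging its nucleotide and helps to dissolve aggregates. It stood at 370.5, 318, 344, 378 and 373 CPM in female controls and at 385, 386, 373, 403 and 379 CPM in stressed females. In male controls it stood at 416, 454, 403, 417 and 401 CPM, and in stressed males at 388, 362, 384, 422 and 361 CPM. The lowest male control (401) was above the highest female control (378), and the other pairs of groups overlapped. The fold differences were smaller than for the inducible HSP70 pair: described without a test, 1.17-fold between control males and females (log2 fold change 0.23, SE 0.05) and 1.08-fold with stress in females (0.11, SE 0.05). In males, stress gave -0.12 (SE 0.05), with an unadjusted p of 0.0322 and an adjusted p of 0.269 by edgeR, so it did not pass, and with the striatal covariate it was -0.17. Stressed males and females differed by -0.01 (SE 0.05, adjusted p 0.998 by edgeR), with an interval of -0.12 to 0.11.

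Hspa8 and Hsp90aa1 are the abundant cytosolic chaperones. Hspa8 averaged 1284 ± 67.6 CPM in female controls, 1321 ± 50.2 in stressed females, 1378 ± 56.4 in male controls and 1305 ± 96.9 in stressed males (SD, n = 5 each), and its highest library was 1.21 times its lowest. For Hsp90aa1, the stress-responsive HSP90, the means were 857 ± 73.6, 788 ± 50.3, 920.3 ± 25.1 and 835 ± 66.9 CPM in the same order. The highest library of Hsp90aa1 was 1.35 times its lowest. Male controls of Hsp90aa1 lay close together, at 903, 959, 905, 902 and 932 CPM, and stressed males spread wider, at 838, 811, 771, 947 and 808 CPM. The groups overlapped, since male stressed 4 lay above 4 of the 5 male controls. Stress in males gave -0.14 (SE 0.06) for Hsp90aa1, with an unadjusted p of 0.0367 and an adjusted p of 0.284 by edgeR, and -0.08 (SE 0.05, adjusted p 0.526 by edgeR) for Hspa8. With the striatal score as a covariate the Hsp90aa1 value was -0.06. Sex in stressed mice gave 0.08 (SE 0.06, adjusted p 0.814 by edgeR) for Hsp90aa1 and -0.02 (SE 0.05, adjusted p 0.984 by edgeR) for Hspa8. Without male stressed 4 these were 0.03 and -0.05. The intervals in that contrast, 0.968-fold to 1.16-fold and 0.913-fold to 1.07-fold, were narrow beside the differences seen for the inducible copies.

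Hspd1 and Hspe1, the HSP60 barrel and its HSP10 lid, share the promoter shown above at 1 of the Hspd1 starts, and differed in spread. Hspd1 ran from 177 to 213 CPM over the 20 libraries and Hspe1 from 28.9 to 51.2 CPM, which is 1.20 and 1.77 times from lowest to highest. Hspd1 averaged 195 ± 9.36 CPM in female controls, 191 ± 13.1 in stressed females, 206 ± 4.79 in male controls and 197 ± 9.58 in stressed males. Hspe1 averaged 43.9 ± 3.20, 38.6 ± 5.93, 46.3 ± 2.96 and 40.1 ± 8.24 CPM in the same order, with overlap between all pairs of groups compared. Within stressed males the Hspe1 libraries stood at 36.5, 28.9, 42.9, 51.2 and 41.2 CPM, holding both its lowest and its highest value of the series. In males, stress gave -0.07 (SE 0.05, adjusted p 0.557 by edgeR) for Hspd1 and -0.18 (SE 0.11, adjusted p 0.475 by edgeR) for Hspe1, and -0.04 for Hspe1 with the striatal covariate. Without male stressed 4 the Hspe1 value was -0.29 and without male stressed 2 it was -0.09. In stressed mice, males differed from females by 0.04 (SE 0.05, adjusted p 0.898 by edgeR) for Hspd1 and by 0.08 (SE 0.11, adjusted p 0.922 by edgeR) for Hspe1. Without male stressed 4 these were 0.01 and -0.03.

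**Figure D2:**
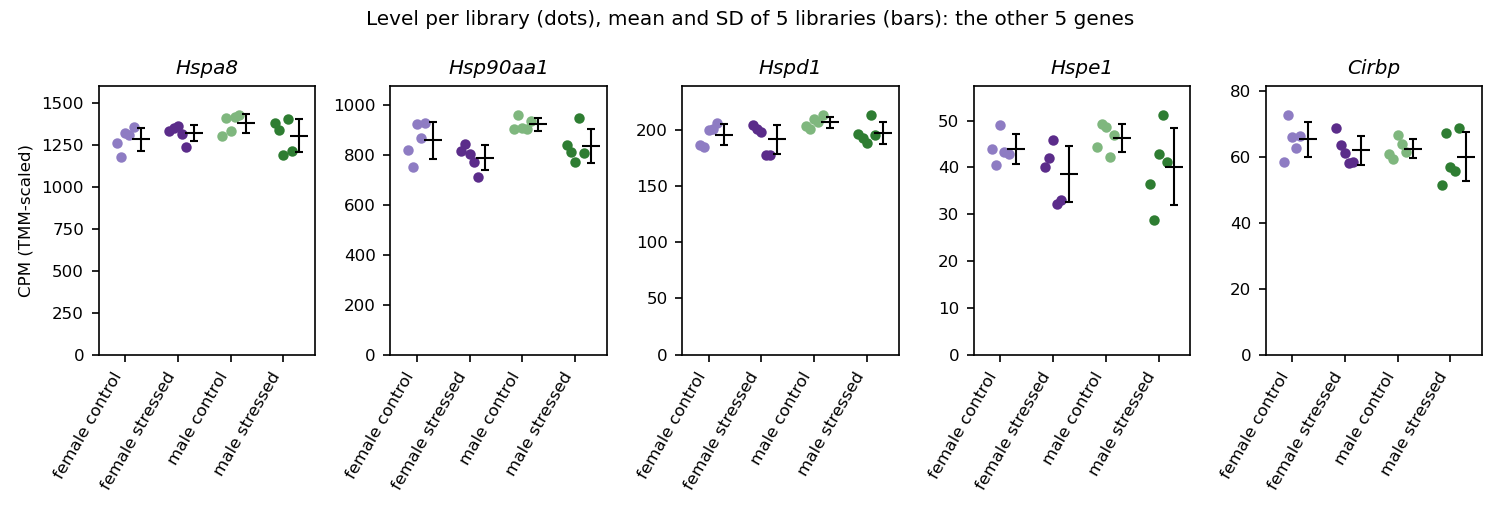
Levels in CPM (vertical axis, from 0) of Hspa8, Hsp90aa1, Hspd1, Hspe1 and Cirbp in the 4 groups, with 1 dot per library and the mean and SD of 5 libraries as a bar. The groups overlap in each of the 4 contrasts for each of these genes, and Hspe1 is widest in stressed males, from 28.9 to 51.2 CPM.

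Rbm3 lies on the X chromosome (chrX:8138975-8145880 in GENCODE M21, GRCm38) and encodes a small RNA-binding protein tied to synapse upkeep in the cold. It stood at 30.4, 32.7, 28.4, 23.0 and 28.5 CPM in female controls and at 44.9, 38.4, 38.2, 36.8 and 40.9 CPM in stressed females. In male controls it stood at 35.8, 36.2, 42.7, 38.1 and 37.7 CPM, and in stressed males at 32.9, 39.2, 42.3, 34.6 and 37.4 CPM. Every female control lay below every library of the other groups, which overlapped one another between 32.9 and 44.9 CPM. Described without a test, stressed females were 1.35-fold above control females (log2 fold change 0.44, SE 0.08) and control males 1.30-fold above them (0.37, SE 0.08). In males, whose libraries played no part in the contrast in which Rbm3 stood out, stress gave -0.02 (SE 0.08, adjusted p 0.960 by edgeR), with an interval of -0.18 to 0.14, and -0.06 with the striatal covariate. On the linear scale that interval runs from 0.883-fold to 1.098-fold. The difference of the stress effects, male minus female, was -0.46 (SE 0.11), and it is a description because it contains the female contrast.

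Cirbp, the relative of Rbm3 that is also raised by mild cooling and in addition cycles with body temperature, did not share its pattern across groups. It stood at 58.6, 72.8, 66.2, 62.9 and 66.2 CPM in female controls and at 68.7, 63.6, 61.1, 58.2 and 58.5 CPM in stressed females. In male controls it stood at 60.8, 59.3, 66.7, 64.0 and 61.5 CPM, and in stressed males at 51.6, 67.2, 57.1, 55.9 and 68.9 CPM. All pairs of groups compared overlapped. Stress gave -0.08 (SE 0.07) in females, as a description, and -0.05 (SE 0.07, adjusted p 0.826 by edgeR) in males, and stressed males differed from stressed females by -0.04 (SE 0.07, adjusted p 0.952 by edgeR).

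**Figure D3:**
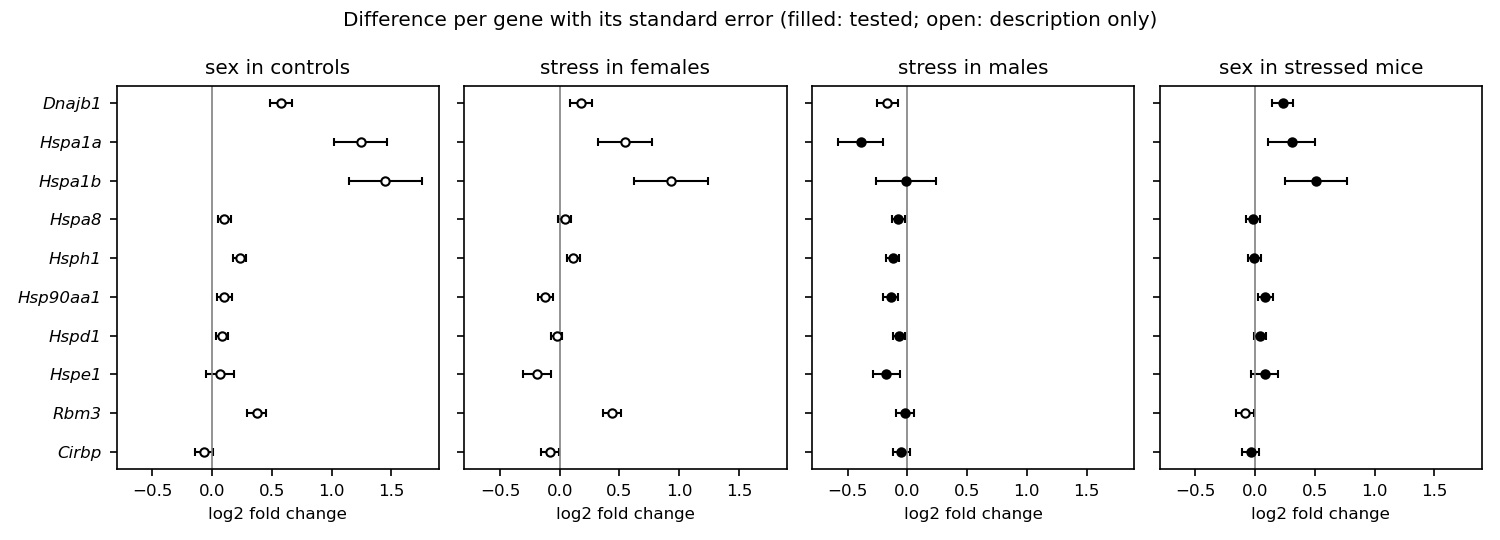
Log2 fold change (horizontal axis) of each gene with its standard error in 4 contrasts, male minus female for sex and stressed minus control for stress; filled dots were tested and open dots are descriptions. Values reach 1.45 for Hspa1b in the contrast of controls and lie between -0.39 and -0.01 for stress in males.

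Over the tested values, 0 of 9 genes passed an adjusted p of 0.05 for stress in males by edgeR, where 0.0077% of all 12988 genes did (1 gene). At an unadjusted p under 0.05 there were 2 of the 9, Hsph1 and Hsp90aa1, both lower, beside 15.5% of all genes. For sex in stressed mice 0 of 9 passed, beside 0.077% of all genes, and 1 of the 9, Dnajb1, had an unadjusted p under 0.05, beside 7.06% of all genes. DESeq2 and limma-voom also called 0 of the 9 in each contrast. Of all 12988 genes, DESeq2 called 239 for stress in males and 14 for sex in stressed mice, and limma-voom 1 and 11. The 10 values for stress in males were all below 0, Dnajb1 included, with a median of -0.10. Of all genes 47.6% were above 0, and their median was -0.01. Dnajb1, Hspa1a, Hspa1b, Hsph1 and Rbm3 had every male control above every female control, so this count is not independent of that contrast. The chaperones also varied together within groups, so the 10 values are not separate observations, and no joint decrease was tested. Hspa1b, Hspd1 and Cirbp were above 0 with the striatal covariate (0.08, 0.01 and 0.04), Hspa1b also with the oligodendrocyte covariate (0.0010), and the sign of Rbm3 changed without single libraries (-0.07 to 0.01). The striatal markers moved with this contrast, as given above, so the covariate values cannot tell the 2 apart. Beyond those values the part of the striatal markers in it was not tested.

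No gene of the 10 had groups apart for stress in males (0 of 10, beside 4.3% of all genes in either direction) or for sex in stressed mice (0 of 10, beside 1.27%). In the contrasts that were in view when the list was drawn up, 5 of 10 had every control male above every control female (1.95% of all genes did), and 2 of 10 had every stressed female above every control female (0.654%). The contrasts share groups: the female controls enter both of these, the male controls also the stress effect in males, and the stressed groups the sex difference under stress. For Hspa1a the difference of the stress effects was -0.94 (SE 0.30), for Hspa1b -0.94 (SE 0.40), for Dnajb1 -0.35 (SE 0.13) and for Hsph1 -0.24 (SE 0.08), male minus female. For Hspa8, Hsp90aa1, Hspd1 and Hspe1 it lay between -0.12 and 0.01.

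How the genes vary together was described within groups, as Pearson's r of log2 CPM over the 20 libraries after the group means were removed. The points share library, depth and tissue makeup, and no p is given. All 28 pairs of chaperones had r above 0, from 0.20 to 0.82, with a median of 0.50. Many other genes reached values near that median. Among 12987 other genes, Hsph1 ranked at 1626 for Hspa8 (r 0.49) and Hsp90aa1 at 710 for Dnajb1 (0.48). Hspa1b ranked at 1461 for Hspe1 (0.48). The median is therefore not read as particular to chaperones. The highest values were those of Hsp90aa1 with Hspd1 (0.82) and with Hspa8 (0.82), followed by Dnajb1 with Hspa1a (0.76). Rbm3 and Cirbp had r 0.51 with each other. Against the chaperones they had a median of -0.15 over 16 pairs, 4 of them above 0, and the lowest were Cirbp with Hsph1 (-0.65), Rbm3 with Hsph1 (-0.54) and Rbm3 with Hspa8 (-0.52).

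**Figure D4:**
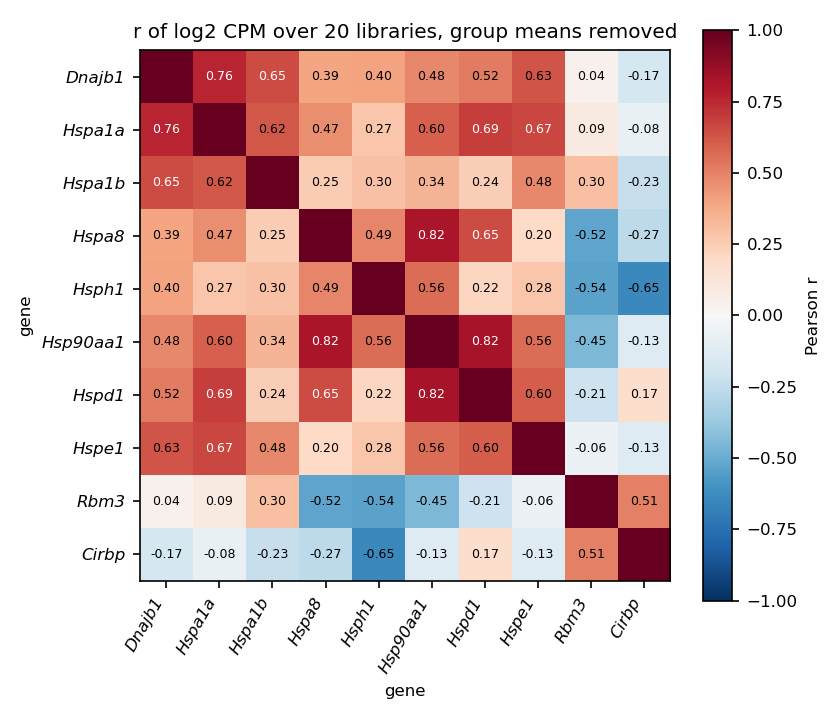
Pearson's r between each pair of genes over 20 libraries, from log2 CPM with the group means removed (blue below 0, red above 0). The chaperone pairs all lie above 0, from 0.20 to 0.82, and Rbm3 and Cirbp lie below 0 against Hspa8, Hsph1 and Hsp90aa1.

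These values depended on 1 library. Male stressed 4, the deepest library with 33595388 counts, was the highest of the 5 stressed males for 8 of 8 chaperones, and without it the median r over the chaperone pairs was 0.36. Its striatal marker sum, 3124 CPM, was the second lowest of the stressed males. In stressed females, replicate 5 was below the group mean for 8 of 8 chaperones and replicate 4 for 7 of 8, and these libraries had the highest striatal sums of the group, 4652 and 4141 CPM. Replicates 1 and 2 of the same group were below the mean for 0 of 8, at 2986 and 2276 CPM. Male stressed 2 was below its group mean for 7 of 8 at 3921 CPM. Male stressed 5 was also below for 7 of 8, at 3141 CPM, close to the sum of male stressed 4. Male stressed 1 was below for 4 of 8 at 3093 CPM. Male stressed 3, with the highest sum of the series, 4702 CPM, was below for 4 of 8. Male control 1 was below for 8 of 8 at the lowest striatal sum of the series, 2149 CPM. Female control 2 was below for 7 of 8 at 2999 CPM and female control 5 for 1 of 8 at 3910.3 CPM. Whether these deviations follow the striatal sum was not tested. With log2 total counts, r within groups was 0.42 for Hspa1b, 0.36 for Rbm3 and between -0.25 and 0.14 for the other 8 genes.

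Among all other 12987 genes, those most like Hspa8 were Stip1 (r 0.91), the adaptor that joins HSP70 to HSP90, then Cyb5b (0.91), Hsp90ab1 (0.88), the constitutive HSP90, Tspyl4 (0.88) and Cct2 (0.87), a subunit of the cytosolic chaperonin. Hsp90aa1 ranked at 22 for Hspa8 with 0.82. Those most like Hspe1 were Chchd2 (0.95), Tomm7 (0.93), Skp1a (0.93), Selenok (0.92) and Mrpl57 (0.91), of which Chchd2, Tomm7 and Mrpl57 encode mitochondrial proteins. All 5, at 1125 to 2956 bases of merged exon, and Hspe1 itself, at 1474, were shorter than the median gene of the table (4728.5 bases). The same held for Hspa8, at 4301 bases, and its 5 genes, at 2108 to 4374. Hspd1, the partner of Hspe1, ranked at 800 for Hspe1 (r 0.60).

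Dnajb1 was most like Glrx5 (0.82), Mfhas1 (0.81), Ndufs8 (0.80), Rps19bp1 (0.80) and Ube2s (0.80), with Hspa1a at rank 14 and Hspa1b at rank 85. Rbm3 was most like Grpel2 (0.85), a nucleotide exchange factor for mitochondrial HSP70, then Ap4b1 (0.81), Brms1l (0.81), Pus7 (0.81) and Nol10 (0.81), with Cirbp at rank 712. The genes listed for Dnajb1 ran from 1083 to 6666 bases of merged exon and those for Rbm3 from 2907 to 8289. Both sets lay on either side of the median gene (4728.5 bases).

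Other genes of the same systems were read from 4 lists, in the contrasts that were tested. The shares over all 12988 genes are given first. For stress in males 47.6% were above 0, and 15.5% had an unadjusted p under 0.05 by edgeR (1131 higher, 878 lower). For sex in stressed mice 49.9% were above 0, and 7.06% had an unadjusted p under 0.05 by edgeR (482 higher, 435 lower). The list of 31 cytosolic chaperones, co-chaperones and heat shock factors had 0 called by edgeR for stress in males, with 27 below 0 and 4 above, a median of -0.07, and 2 higher and 4 lower at an unadjusted p under 0.05. Its smallest p-values belonged to Hspa2, an HSP70 relative, at 0.22 (SE 0.07, adjusted p 0.141 by edgeR), and Ahsa1, which speeds the ATPase of HSP90, at -0.13 (SE 0.05, adjusted p 0.193 by edgeR). For sex in stressed mice 0 of 31 were called, with 17 above 0, a median of 0.0019, and 1 higher and 2 lower at an unadjusted p under 0.05. Dnajb4 at 0.14 (SE 0.05) and Stub1, a ubiquitin ligase for chaperone clients, at -0.16 (SE 0.06) came nearest, both with an adjusted p of 0.628 by edgeR.

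The 12 mitochondrial chaperones and proteases were split evenly for stress in males (6 above 0 and 6 below, median -0.0023), with 0 called and 0 at an unadjusted p under 0.05 by edgeR. Afg3l2 (0.08, SE 0.05) and Timm44 (-0.10, SE 0.07) had the smallest p, and with the striatal covariate they were 0.05 and -0.16. For sex in stressed mice 7 were above 0 (median 0.02), 0 were called and 1 was at an unadjusted p under 0.05, Clpx (0.11, SE 0.05), with Clpp (-0.15, SE 0.09) next; these subunits form 1 protease. Of the 14 genes of the cytosolic chaperonin and prefoldin, which fold actin and tubulin, 13 were below 0 for stress in males (median -0.06), with 0 called and 1 at an unadjusted p under 0.05, Vbp1 (-0.22, SE 0.09, adjusted p 0.230 by edgeR). Cct8 came next at -0.10 (SE 0.06). With the striatal covariate Vbp1 was -0.03 and Cct8 -0.0084. For sex in stressed mice 10 of the 14 were above 0 (median 0.04), with 0 called and 0 at an unadjusted p under 0.05, and Cct4 (0.08, SE 0.06) and Cct3 (0.06, SE 0.05) had the smallest p, with 0.013 and 0.015 without male stressed 4.

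The last list held RNA-binding and splicing genes of the kind of Rbm3 and Cirbp or tied to temperature, 15 of 16 analysed. For stress in males 14 were below 0 (median -0.10), with 0 called and 3 lower at an unadjusted p under 0.05. Hnrnpa2b1, an RNA-binding protein of transport granules, was at -0.18 (SE 0.06, adjusted p 0.158 by edgeR) and Srsf5, a splicing factor, at -0.23 (SE 0.09, adjusted p 0.237 by edgeR). Both were called without male stressed 5 (-0.23 and -0.34, adjusted p 0.0481 and 0.0456 by edgeR). For sex in stressed mice 9 of 15 were below 0 (median -0.04), with 0 called and 1 at an unadjusted p under 0.05, Rbmx (-0.12, SE 0.06), followed by Srsf2 (-0.11, SE 0.05). DESeq2 and limma-voom also called 0 of the 72 genes of the 4 lists in each of these contrasts. Over all genes DESeq2 called 239 for stress in males and 14 for sex in stressed mice, and limma-voom 1 and 11.

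**Figure D5:**
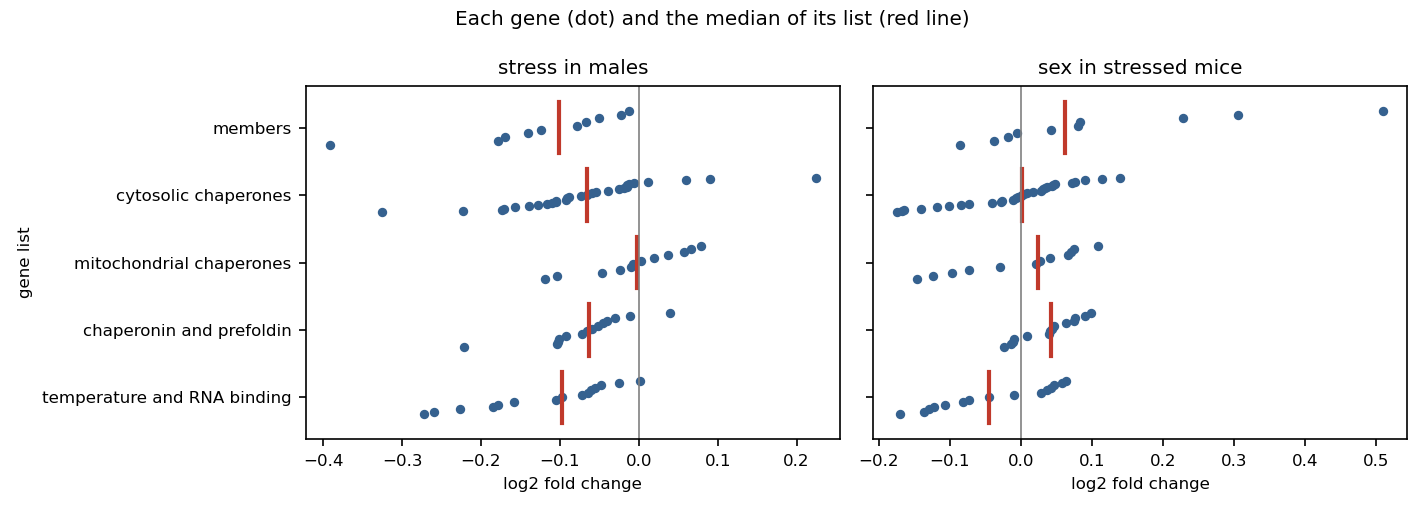
Log2 fold change (horizontal axis) of each gene of 5 lists, the 10 genes described here at the top, for stress in males (left) and sex in stressed mice (right); each dot is a gene and the red line the median of its list. For stress in males the medians run from -0.10 to -0.0023, and for sex in stressed mice from -0.04 to 0.06.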

How the data were processed

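The authors deposited raw counts per gene symbol for 20 libraries; the submitters' processing notes name STAR, featureCounts and mm10, and versions, settings and annotation are not given in the sources used here. Row totals started at 1002, so rarer genes were not analysed here. Columns were assigned to samples by their labels. The test was that of edgeR 4.0.16 (R 4.3.3; filterByExpr, TMM factors, 1 mean per group over all 20 libraries, quasi-likelihood test, two-sided, Benjamini-Hochberg adjustment over 12988 genes, threshold 0.05). SE is the log2 fold change divided by the root of F. Correlations used log2 CPM with a prior count of 2. Members and lists were chosen with earlier results of these data known. Named were all 10 genes, the 2 genes with the smallest p per list and tested contrast, and the 5 genes most like Dnajb1, Hspa8, Hspe1 and Rbm3. Exon lengths came from GENCODE M21 (98.69% of genes matched). The fit was tested on simulated data. Libraries pool different mice, so p-values measure the spread between pools. Alternatives were other scalings, DESeq2 1.42.0, limma-voom (limma 3.58.1), no filter, only the groups compared, the replicate block, striatal or oligodendrocyte marker scores as covariates, each library left out and, added after seeing the data, the Hspa1 copies summed.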

Additional observations from a re-analysis of the deposited data

How the results depend on the processing

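The count of tested genes called stayed at 0 of 9 for stress in males and for sex in stressed mice under each of the 9 other settings and without each of the 10 libraries. Of those settings, dropping the low-count filter could change nothing, because all 12988 genes passed it. Of the 72 genes of the 4 lists, 1 was called for stress in males with the oligodendrocyte covariate, Cryab (-0.29, adjusted p 0.0341; it was picked out for this call). Leaving out single libraries gave 0 to 2, with 2 when male stressed 5 was dropped. For stress in males the values above 0 were those of Hspa1b (0.080 with the striatal and 0.0010 with the oligodendrocyte covariate), Hspd1 (0.0096) and Cirbp (0.042), the latter both with the striatal covariate; the cause was not tested. With 1 library left out, stress in males ran from -0.35 to 0.20 for Hspa1b and from -0.075 to 0.014 for Rbm3. Sex in stressed mice ran from -0.046 to 0.014 for Hspa8, from -0.043 to 0.016 for Hsph1, from -0.027 to 0.17 for Hspe1 and from -0.094 to 0.0051 for Cirbp. The Hspa1 copies summed gave -0.20 for stress in males (adjusted p 0.713). With the replicate block 0 of 9 were called in either contrast. Over 30 same-numbered pairs the median r of deviations was -0.01, with 5 pairs over 0.1 and the highest at 0.24. Of 20 libraries, 0 were most like their own number. Deviations also carry tissue makeup, and whether same-numbered libraries shared a batch was not tested. Over all genes, 1 was called for stress in males, but 239 by DESeq2, 303 from the 10 male libraries alone and 15 with the oligodendrocyte covariate. Depth limits Hspa1a and Hspa1b most, with 6 and 2 counts in female control 4.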
